A study of Mus musculus with 22 samples.

Results

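The hearts of 22 mice were compared by how much fat cell RNA the piece of tissue on each array carried. Female C57BL/6 mice, bought at 5 to 7 weeks of age and acclimatised for 1 to 3 weeks, were anaesthetised with Hypnorm and Dormicum and received 40 µl into the trachea. The liquid held 162 µg of nano-sized titanium dioxide (nano-TiO2) or, in controls, only the vehicle, water with saline and cell-free lavage fluid of untreated mice. Hearts were taken 1 or 28 days later and cut into small pieces, with 5 mice of either treatment at day 1, 6 of either at day 28, and 1 mouse per array. Heart RNA in Cy5 was set against a common reference RNA from 11 mouse cell lines in Cy3, so every value below is a log2 of heart over reference signal, on which a difference of 1 is a 2-fold change. For each array the values of Adipoq, Cidec and Plin1 in the deposited series matrix were averaged, and the 11 arrays above the median of all 22 are called fat-rich and the 11 below it fat-poor, so that all 22 arrays belong to a class.

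White fat cells store triglyceride in a large droplet, release it as fatty acids and secrete hormones and complement proteins, while brown fat cells burn fat for heat through uncoupling protein 1. The heart carries fat on its outer surface, around the atria and the roots of the great vessels, next to mesothelium. Heart muscle itself burns fatty acids and makes many proteins that fat cells also use. In bulk RNA, fewer fat cells and less RNA per fat cell cannot be told apart.

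The sequences before the starts of the 3 genes are shown because these transcripts define the classes. Each is the 250 bases before an annotated start (RefSeq, GRCm38.p6), 5′ to 3′ on the gene's strand, with matches to TTGCNNAA, a C/EBP-type motif searched on both strands, in capitals. C/EBP proteins are transcription factors of fat cell differentiation. Adipoq is on the plus strand at chr16:23146286-23146535. Cidec is on the minus strand with stretches at chr6:113434765-113435014 and chr6:113435761-113436010, and Plin1 is on the minus strand at chr7:79732777-79733026.
Adipoq: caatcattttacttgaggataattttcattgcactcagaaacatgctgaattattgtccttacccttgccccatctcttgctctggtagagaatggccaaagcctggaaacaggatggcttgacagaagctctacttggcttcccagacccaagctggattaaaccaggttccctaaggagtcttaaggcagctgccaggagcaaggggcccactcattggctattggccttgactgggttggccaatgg
Cidec, first stretch: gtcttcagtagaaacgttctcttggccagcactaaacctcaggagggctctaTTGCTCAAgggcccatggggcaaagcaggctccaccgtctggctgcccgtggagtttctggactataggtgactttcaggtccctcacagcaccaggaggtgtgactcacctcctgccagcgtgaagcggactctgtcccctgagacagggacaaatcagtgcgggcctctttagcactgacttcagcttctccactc
Cidec, second stretch: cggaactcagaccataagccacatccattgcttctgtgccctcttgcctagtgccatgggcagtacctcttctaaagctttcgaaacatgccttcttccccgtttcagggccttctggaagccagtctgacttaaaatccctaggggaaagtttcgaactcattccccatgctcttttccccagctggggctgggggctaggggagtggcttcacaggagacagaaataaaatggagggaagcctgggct
Plin1: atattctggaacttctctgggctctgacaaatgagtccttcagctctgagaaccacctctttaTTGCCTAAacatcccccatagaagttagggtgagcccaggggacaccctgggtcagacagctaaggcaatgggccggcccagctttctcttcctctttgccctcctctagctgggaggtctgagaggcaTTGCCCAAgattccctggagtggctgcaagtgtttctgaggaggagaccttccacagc
The Plin1 stretch held 2 matches, the first Cidec stretch 1, and the second Cidec stretch and Adipoq 0. The motif stood in 9.56% of the 32851 RefSeq promoters searched. Of 113 genes in 6 fat cell lists 78 were matched to a promoter, and 9 of these (11.5%) held it, against 10.8% of all genes matched. A PPAR/RXR-type direct repeat, AGGNCA followed after any 1 base by AGGNCA and also searched on both strands, was found before 0 of these 78 genes, in 0 of the 4 stretches and in 0.338% of all promoters.

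Adipoq encodes the fat cell hormone adiponectin, Cidec a protein that fuses lipid droplets, and Plin1 the coat protein of the fat cell droplet. The classes were chosen by the measured values of these 3 genes, which are given as a description. Adipoq lay at 3.14, 5.35 and 6.83 (lowest, median, highest) on the fat-rich arrays and at -0.084, 0.10 and 2.94 on the fat-poor arrays. Cidec lay at 3.06, 5.37 and 7.14 against -0.16, 0.20 and 2.81. Plin1 lay at 1.95, 4.32 and 5.93 against -0.17, 0.12 and 1.75. The mean of the 3 genes, below called the marker mean, ran from -0.083 to 6.57, a range of 100.5-fold. On 6 arrays it was at most 0.12 with none of the 3 genes well above background, and the next array stood at 1.00. These 6 were control day 1 replicates 1 to 4 and replicate 1 of each nano-TiO2 group. The arrays just inside and just outside the division, nano-TiO2 day 1 replicate 3 at 2.71 and control day 28 replicate 6 at 2.50, differed by 0.21. In the ratios made from the scanner files, which the fits below use, their order was reversed, at 2.56 and 2.58.

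**Figure D1:**
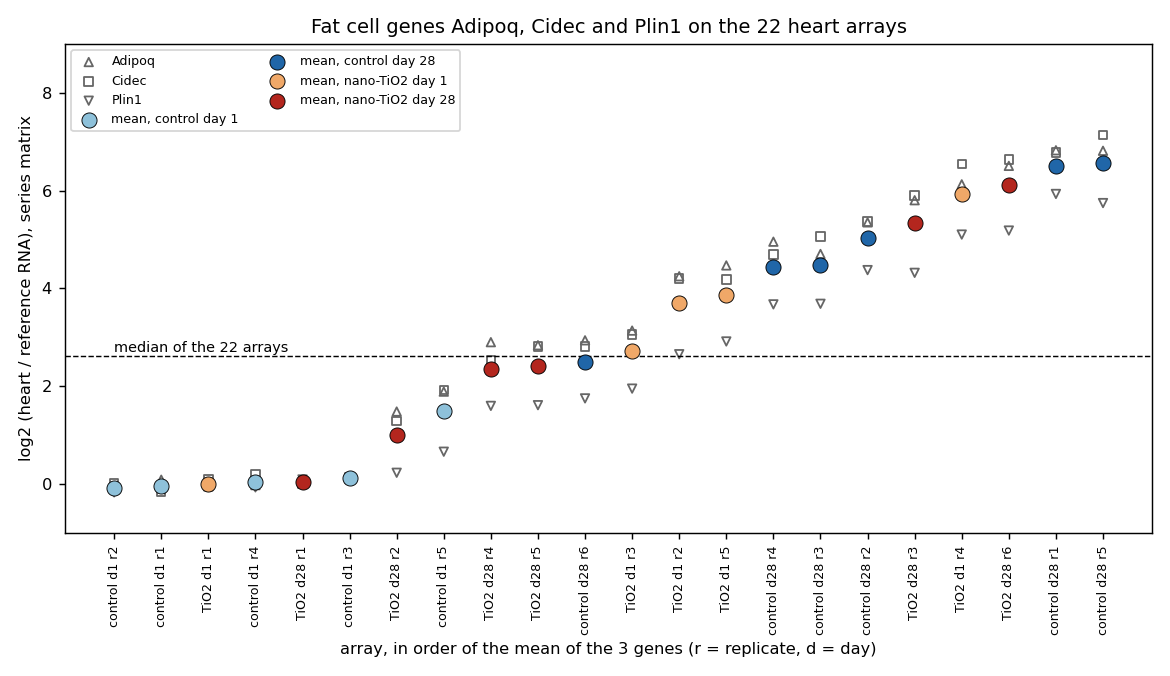
Log2 ratio of heart to reference RNA (series matrix) of Adipoq, Cidec and Plin1 and their mean on the 22 arrays in order of the mean, coloured by group, with the median as a dashed line. A group of 6 arrays lies near 0, and the 11 fat-rich arrays run from 2.71 to 6.57.

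The classes were spread unevenly over the 4 groups of the study. The marker mean (lowest, median, highest) was -0.083, 0.035 and 1.49 in control day 1 (n = 5) and 2.50, 4.76 and 6.57 in control day 28 (n = 6). It was -0.0027, 3.70 and 5.93 in nano-TiO2 day 1 (n = 5) and 0.039, 2.38 and 6.11 in nano-TiO2 day 28 (n = 6). At day 1, 0 of 5 control and 4 of 5 nano-TiO2 arrays were fat-rich, and at day 28 it was 5 of 6 control and 2 of 6 nano-TiO2 arrays. With title group in the fit, control day 1 gave no contrast between classes, so the comparison rests on 4 fat-rich arrays against 1, 5 against 1 and 2 against 4. Over the 3 scan days the classes divided as 4 fat-rich and 2 fat-poor, 3 and 5, and 4 and 4.

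Heart muscle genes were high on every array, although the extraction text speaks of lung. The mean over cardiac muscle genes lay between 5.08 and 5.68 on all 22 arrays. The surfactant genes Sftpc, Sftpb, Sftpa1 and Sftpd did not reach the filter, which a gene present on fewer than 5 arrays also misses. Of the lung epithelium genes tested, Scgb1a1 (3.94 and 3.54) and Cyp2f2 (4.64 and 5.31) were high on control day 28 replicates 1 and 5. Cyp2f2 was 2.67 on replicate 4 of that group, and Hopx and Lamp3 were not higher on these arrays. Between 40.0% and 52.9% of probes were well above background on the fat-rich arrays and between 32.8% and 45.4% on the fat-poor arrays, and the number of arrays limits the precision. Of 15511 genes tested beside the 3 markers (limma, title group as covariate, Benjamini-Hochberg adjustment, threshold 0.05), 678 were higher (4.37%) and 205 lower (1.32%) on the fat-rich arrays, 5.69% in either direction. With the marker mean as a continuous covariate in place of the class, 1186 were higher (7.65%) and 759 lower (4.89%), 12.5% in either direction. For 24 genes (0.155%) all fat-rich arrays lay above all fat-poor arrays, and for 6 (0.0387%) below. The division into higher and lower moved with the scaling. It was 704 and 366 in the series matrix, 476 and 260 in Cy5 alone, 1129 and 957 in the ratios that the scanner software computed and 257 and 0 with median centring, where 5 genes were lower at an unadjusted p under 0.05 and the median difference of all genes was 0.21 in place of 0.0046. Because fat cell transcripts chose the arrays, fat cell genes are described without a test, and a call on any other gene says that it moved with the 3 markers over these arrays.

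Single arrays carried much of these counts. The higher and lower genes numbered 251 and 29 without nano-TiO2 day 1 replicate 1, 273 and 26 without nano-TiO2 day 28 replicate 3, and 304 and 24 without nano-TiO2 day 28 replicate 6. They numbered 401 and 81 without control day 28 replicate 6 and 427 and 74 without nano-TiO2 day 28 replicate 1, while lower genes numbered 87 when nano-TiO2 day 28 replicate 2 was left out and 322 when replicate 4 of that group was. With slide as a block they numbered 359 and 57, and with scan day as a block 608 and 164. With classes from the scanner-file ratios, where the arrays on either side of the division trade places, they numbered 151 and 49. That trade leaves control day 28 without a fat-poor array. Without the 6 arrays near 0, 2 genes were higher and 0 lower by limma, with 1525 and 771 at an unadjusted p under 0.05. Of 95 genes named here that passed, 40 also passed without each array in turn. Both numbers include fat cell genes such as Hp, Scd1 and Car3, which the choice of arrays favours. They therefore do not measure how firm the calls on other genes are.

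Most hormones and carriers secreted by fat cells were higher on the fat-rich arrays. Of 17 listed, 12 reached the filter, 9 of them were higher on the fat-rich arrays, and their median difference was 0.81, against 0.0046 over all genes tested. Cfd (adipsin, complement factor D) lay at 6.38, 7.58 and 8.82 (lowest, median, highest) on the fat-rich and at 0.37, 0.98 and 6.56 on the fat-poor arrays, a difference of 3.72 ± 0.89 (SE). It was at most 0.98 on the 6 arrays near 0 and at 5.04 or above on all 16 others, so its step stood between these arrays and not at the division. Hp, which encodes the haemoglobin carrier haptoglobin, lay at 1.23, 2.27 and 4.22 against -1.49, -0.20 and 0.49, a difference of 3.18 ± 0.41. Its 11 fat-rich values all lay above its 11 fat-poor values, as did those of Rbp4, the retinol carrier of plasma (0.77, 2.38 and 4.41 against -1.17, 0.23 and 0.66), which differed by 2.55 ± 0.38. Apoc1 (an apolipoprotein) differed by 2.94 ± 0.42 and Retn (the hormone resistin) by 2.30 ± 0.46, with 9 of 11 fat-rich values above all fat-poor values for each. Apoc1 did not follow the markers among the fat-poor arrays. It ran from 1.78 to 2.81 on control day 1 replicates 1 to 4, and from -0.085 to 1.52 on the fat-poor arrays above the 6 near 0. Rbp4 (4.24 and 4.41) and Apoc1 (5.58 and 5.67) were highest on control day 28 replicates 4 and 1. These arrays also had the highest means of liver genes, given below. Replicate 5 of that group, with the highest marker mean, had 3.17 and 3.56. Without the 5 arrays with liver or lung transcripts Rbp4 differed by 2.26 ± 0.28 and Apoc1 by 2.72 ± 0.33. A part of liver RNA in these values was not tested.

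Smaller differences came from Agt (angiotensinogen, 0.89 ± 0.22), Apoe (apolipoprotein E, 0.45 ± 0.11) and Nrg4 (neuregulin 4, 0.73 ± 0.22). Apln, the peptide hormone apelin, went the other way, from -0.36 to 0.12 on the fat-rich arrays and from 0.16 to 0.58 on the fat-poor arrays, and the classes did not overlap. The hormone gene Lep (leptin) and Nnat, Itln1, Serpina12 and Lcn2 stayed under the filter.

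Transcription factors and receptors of fat cells differed less, with a median of 0.32 over 16 genes, 15 of them higher. Cebpa, a C/EBP factor of mature fat cells, lay at 0.33, 1.26 and 2.35 against -0.00018, 0.20 and 0.54 and differed by 1.16 ± 0.25 at the probe used (0.091 at a probe well above background on 2 arrays). Npr3, the clearance receptor of natriuretic peptides, differed by 1.00 ± 0.22 (0.31 and 0.21 at 2 dimmer probes) and Pparg, the nuclear receptor that drives fat cell formation, by 0.61 ± 0.18. Acvr1c (an activin receptor) was not well above background on any fat-poor array and was at least 1.37-fold higher on the fat-rich arrays, a bound set by the lowest signals that count as above background. Rxrg, a retinoid X receptor, differed by -0.37 ± 0.10, at 5.22 to 5.87 against 5.56 to 6.10.

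Genes of fat synthesis followed the same order of arrays. Of 22 lipogenesis and triglyceride synthesis genes 20 reached the filter and 15 were higher, with a median difference of 0.56. Scd1, the desaturase that makes oleate, lay at -0.00092, 2.96 and 3.98 on the fat-rich and at -1.04, -0.76 and 0.44 on the fat-poor arrays, a difference of 3.15 ± 0.48. Nano-TiO2 day 1 replicate 3, the array next to the division, had the 1 fat-rich Scd1 value that lay within the fat-poor range. Fasn (fatty acid synthase, measured on 21 arrays) lay at -1.11, 1.53 and 2.74 against -2.52, -2.09 and -0.25. It differed by 2.92 ± 0.48, and by 1.78 at a second probe. Elovl6, which lengthens fatty acids, differed by 1.23 ± 0.30, Slc25a1 (the mitochondrial citrate carrier) by 0.98 ± 0.28, Pcx (pyruvate carboxylase) by 0.97 ± 0.24, Thrsp by 0.95 ± 0.20, Acly (ATP citrate lyase) by 0.92 ± 0.29 and Gpd1 (glycerol phosphate dehydrogenase) by 0.69 ± 0.18 (0.30 at a second probe). The sign of Thrsp turned in the scanner log ratios, where its difference was -0.012.

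Among 20 other fat cell genes 17 were higher, with a median of 0.61. Car3 (carbonic anhydrase 3, abundant in white fat) lay at 3.16, 5.04 and 6.31 on the fat-rich and at -0.024, 0.53 and 3.18 on the fat-poor arrays, a difference of 3.48 ± 0.48. Like Cfd it was higher on the 5 fat-poor arrays above the 6 near 0, from 1.58 to 3.18. Cyp2e1 and the amino acid carrier Slc7a10 were not well above background on any fat-poor array and were at least 2.93-fold and 1.92-fold higher on the fat-rich arrays. Nat8l differed by 1.47 ± 0.21, Aoc3 (an amine oxidase of the fat cell surface) by 1.26 ± 0.25 and Trarg1 by 0.64 ± 0.17. Cdo1, which oxidises cysteine, was in none of the lists and was named by the size of its difference. It lay at 0.97, 2.81 and 4.14 against -0.039, 0.19 and 0.72, without overlap.

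Genes that fat cells share with heart muscle did not follow this pattern. Over 12 fatty acid uptake and binding genes the median difference was -0.074 and 4 were higher, and with median centring it was 0.23. Fabp4, the fatty acid binder of fat cells and capillaries, lay at 7.80, 8.05 and 8.55 on the fat-rich and at 7.65, 7.96 and 8.12 on the fat-poor arrays. These levels were high in both classes and overlapped, and the difference was 0.25 ± 0.13, with 0.13 and 0.82 at 2 other probes. Lpl (lipoprotein lipase) ran from 5.60 to 6.56 against 6.15 to 6.95, and Cd36, a fatty acid carrier, from 4.50 to 5.23 against 4.80 to 5.60, a difference of -0.30 ± 0.12 that was 0.033 with median centring. The insulin-sensitive glucose carrier Slc2a4 ran from 6.56 to 7.10 against 6.68 to 7.20, with a difference of -0.12 ± 0.10 that was 0.21 with median centring and 0.12 with normexp fitted on all spots. Fabp3, the fatty acid binder of heart muscle, differed by -0.34 ± 0.12.

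The 16 droplet and lipolysis genes showed both kinds, with 14 higher and a median of 0.28. Bscl2 (seipin, of droplet formation) differed by 0.32 ± 0.088 with 10 of 11 fat-rich values above all fat-poor values, and Plin2, a droplet coat protein of many cells, differed by 0.41 ± 0.12. Plin5, the droplet coat of oxidative muscle, differed by -0.36 ± 0.14 at 6.01 to 7.04 against 6.68 to 7.30. The lipases Pnpla2 (0.38 ± 0.17) and Lipe (0.29 ± 0.15), the droplet protein Plin4 (0.35 ± 0.18) and Cidea (0.27 ± 0.12) were above background on all arrays and overlapped between the classes. Cidea turned to -0.22 in the scanner log ratios.

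Of the brown fat genes tested, Ucp1 had the highest difference. Ucp1, the heat-making uncoupling protein, lay at 0.021, 4.84 and 6.45 on the fat-rich and at -0.19, 0.11 and 3.56 on the fat-poor arrays, a difference of 2.54 ± 0.66. It did not follow the 3 markers on every array. Nano-TiO2 day 28 replicate 6 had a marker mean of 6.11 and a Ucp1 value of 1.78, while the 5 fat-rich arrays of control day 28 had Ucp1 values of 4.39 to 6.45. Nano-TiO2 day 1 replicate 3, with a marker mean of 2.71, had Ucp1 at 0.021, and control day 28 replicate 6, with 2.50, had it at 3.56. Dio2, which activates thyroid hormone, lay at 1.24, 1.69 and 2.47 against 0.19, 0.74 and 1.30 and differed by 0.96 ± 0.17. S100b, a secreted calcium-binding protein that Schwann cells also make, lay at 2.08, 2.70 and 3.55 against 1.26, 1.65 and 2.48 and differed by 0.69 ± 0.21. Letmd1, a mitochondrial protein of brown fat, differed by 0.61 ± 0.20. The median over 16 brown and beige fat genes was -0.081, and 0.14 with median centring. The list holds genes of oxidative muscle such as Cox8b, at 7.58 to 8.34 against 7.83 to 8.71, a difference of -0.23 that was 0.10 with median centring.

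**Figure D2:**
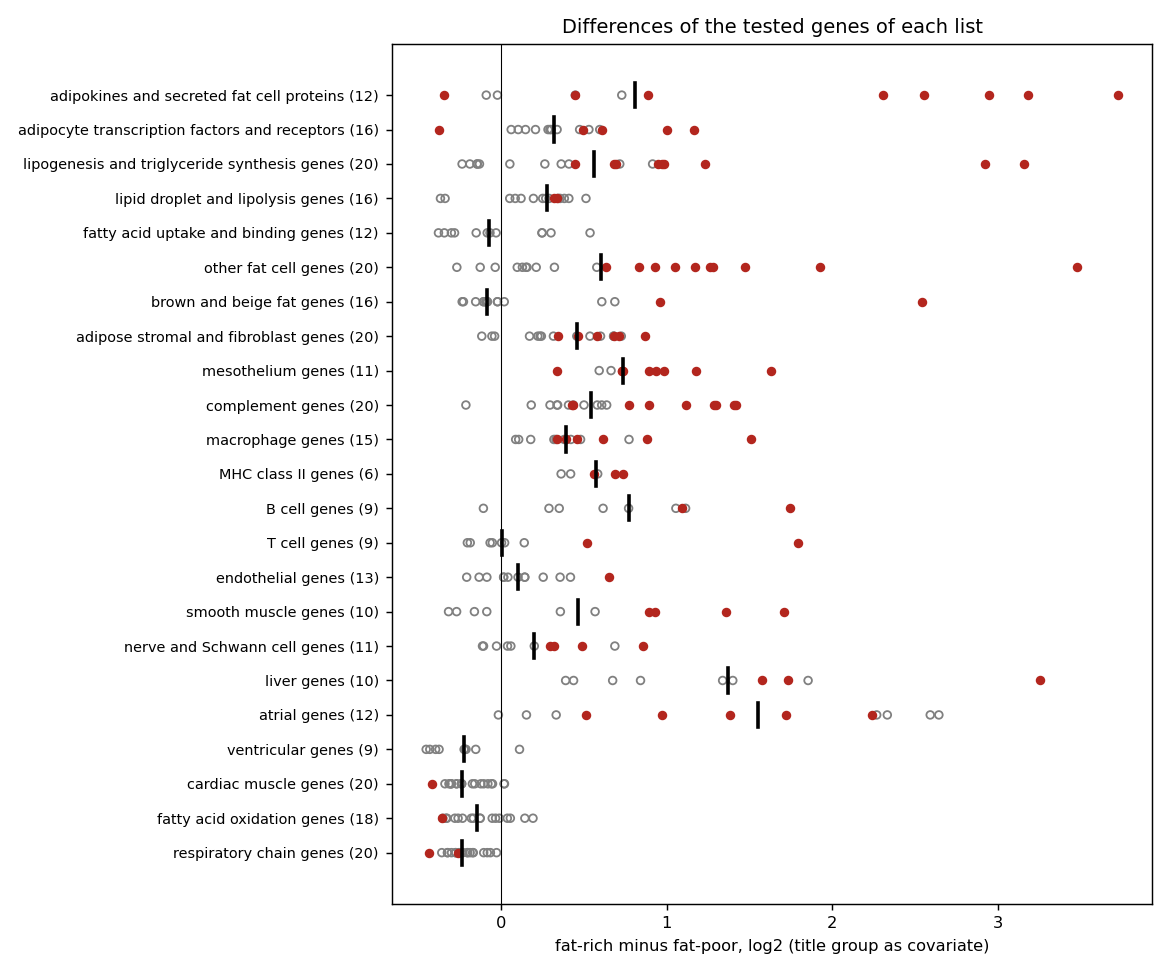
Difference between fat-rich and fat-poor arrays (log2, title group as covariate) of each tested gene of the lists, with the number tested in brackets, filled where the adjusted p was under 0.05 and with the median as a black bar. In the fat cell lists the fill is a description only, because fat cell transcripts chose the arrays. Secreted fat cell, lipogenesis, liver, Car3-holding other fat cell and atrial genes reach furthest to the right, and the ventricular, cardiac muscle, oxidation and respiratory chain medians lie left of 0, where with median centring they did not.

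Complement is a cascade of plasma proteins that marks cells and particles for removal. Of 25 complement genes 20 reached the filter and 9 of them rose on the fat-rich arrays (45%, against 4.37% of all genes tested), 0 fell, and the median difference was 0.54. Cfb, factor B of the alternative pathway, lay at 0.96, 1.96 and 2.88 on the fat-rich and at 0.14, 0.43 and 0.86 on the fat-poor arrays. The classes did not overlap, and the difference was 1.28 ± 0.21 (limma, adjusted p 0.00265). C2 of the classical pathway lay at 1.16, 2.62 and 2.88 against 0.095, 0.70 and 1.77, a difference of 1.42 ± 0.24 (limma, adjusted p 0.00265), with 10 of 11 fat-rich values above all fat-poor values. C4b, the partner of C2 in the convertase of that pathway, lay at 0.88, 2.15 and 2.62 against -0.45, 0.18 and 1.31 and rose by 1.41 ± 0.24 (limma, adjusted p 0.00265). Cfp, the stabiliser properdin, rose by 0.89 ± 0.18 (limma, adjusted p 0.00619). C3, the central component, was named after its values were seen and rose by 1.30 ± 0.28 (limma, adjusted p 0.0103).

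The complement count ranged from 5 (without nano-TiO2 day 28 replicate 6) to 12 (without control day 28 replicate 3) when 1 array was left out. Without the 3 arrays with the lowest atrial values it was 3, namely Cfb (1.35 ± 0.26), Cfp (1.00 ± 0.20) and C2 (1.33 ± 0.27; limma, adjusted p 0.0383, 0.0408 and 0.0408). Without the 6 arrays near 0 it was 0, and the median was 0.58 in both fits. Without the 5 arrays with liver or lung transcripts it was 9, with a median of 0.41. The complement median was 0.59 within control day 28, 0.49 within nano-TiO2 day 1 and 0.47 within nano-TiO2 day 28, and 0.64, 0.90 and 0.51 within the 3 scan days. Control day 28 and nano-TiO2 day 1 each held 1 fat-poor array, so their medians rest on a single array on that side.

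Mesothelium genes and most stromal genes were higher with the fat markers. Where in the heart their RNA came from was not tested. All 11 tested mesothelium genes were higher and 9 rose (81.8%, against 4.37% of all genes tested), with a median of 0.74. The count ran from 3 without nano-TiO2 day 1 replicate 1 to 11 without control day 28 replicate 3, and was 0 without the 3 arrays with the lowest atrial values. Rspo1 (a Wnt signalling enhancer) rose by 1.63 ± 0.28, with 10 of 11 fat-rich values above all fat-poor values, and the membrane protein Gpm6a rose by 1.18 ± 0.21 (limma, adjusted p 0.00294 and 0.00369). The plaque protein genes Upk3b and Upk1b rose by 0.99 ± 0.19 and 0.74 ± 0.15 and the tight junction gene Cldn15 by 0.73 ± 0.13 (limma, adjusted p 0.00619, 0.00619 and 0.00391). The mesothelium mean ran from -0.64 to 0.68 on the fat-rich and from -1.57 to -0.22 on the fat-poor arrays. Of 20 stromal and fibroblast genes 6 rose (30%, against the same 4.37%), with a median of 0.46. Among them were Vim (vimentin, 0.87 ± 0.19), Dcn (decorin, 0.72 ± 0.20), Gsn (gelsolin, 0.69 ± 0.16) and Tcf21 (a regulator of epicardial cells, 0.47 ± 0.13). The stromal count was 0 when nano-TiO2 day 1 replicate 1 was left out, and 0 when the 3 arrays with the lowest atrial values were.

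Atrial genes rose in part. Of 12 tested 5 rose (41.7%, against 4.37% of all genes tested), with a median difference of 1.55. Dkk3, a secreted Wnt modulator, rose by 2.24 ± 0.51, Bmp10 (a BMP family growth factor made by right atrial muscle) by 1.72 ± 0.39 and Stard10, a lipid transfer protein, by 1.38 ± 0.35 (limma, adjusted p 0.0132, 0.0129 and 0.0236). Pam, a membrane protein of atrial granules, rose by 0.97 ± 0.22 and the atrial regulator Nr2f2 by 0.51 ± 0.11 (limma, adjusted p 0.0146 and 0.0128). The atrial mean ran from 3.34 to 4.13 on all 11 fat-rich arrays and from 0.65 to 3.62 on the fat-poor arrays. It was lowest, at 0.65 to 0.78, on control day 1 replicate 2 and on replicate 1 of each nano-TiO2 group, followed by 1.34 and 2.05 on control day 1 replicates 4 and 1, all 5 among the 6 arrays near 0. Without the 3 lowest arrays the median was 0.32 with 0 of 12 called, and 43 genes of all tested were higher and 0 lower by limma, with 1468 and 716 at an unadjusted p under 0.05. Without nano-TiO2 day 1 replicate 1 alone, and with slide as a block, 0 atrial genes were called. With the atrial mean in the fit, 6 genes of all tested were higher and 0 lower by limma, with 1030 and 469 at an unadjusted p under 0.05. Hp (2.73 ± 0.48) and Apoc1 (2.90 ± 0.52) were among the 6. Both are fat cell list genes, which the choice of arrays favours, so their calls are a description only.

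**Figure D3:**
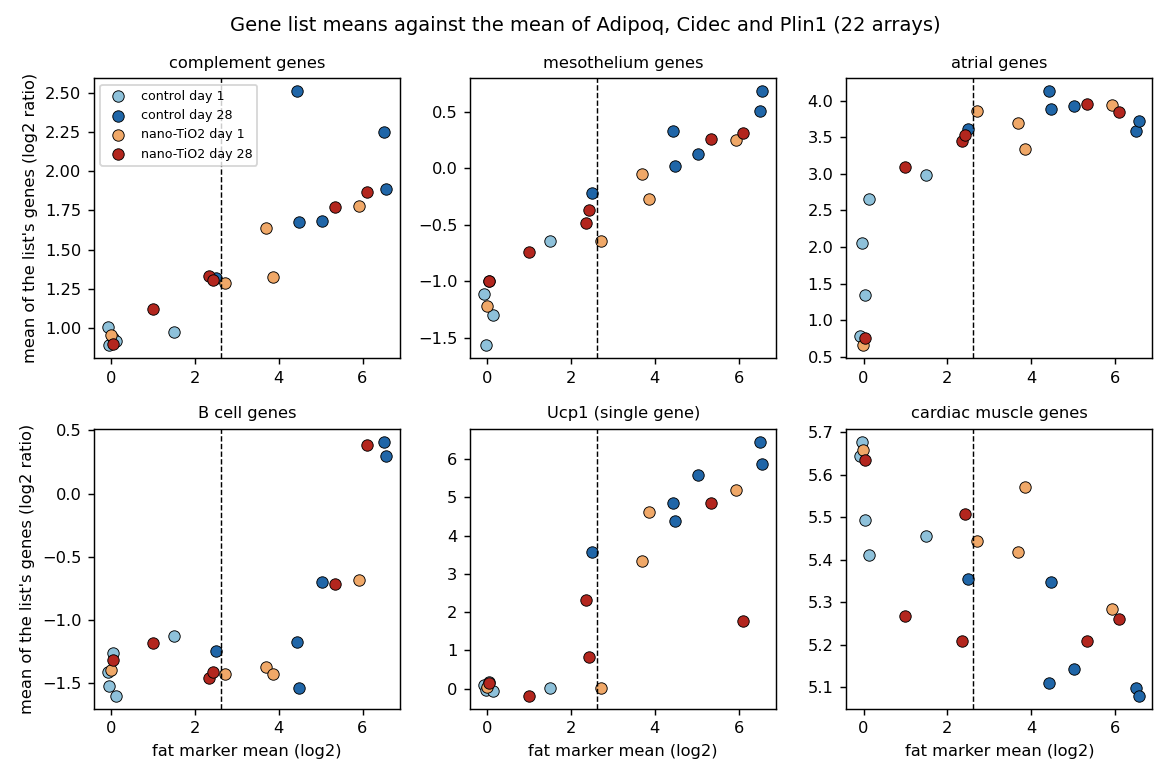
Mean log2 ratio of 5 gene lists and of Ucp1 against the mean of Adipoq, Cidec and Plin1 on the 22 arrays, coloured by group, with the division as a dashed line. Complement means run up to 2.51, atrial means are lowest on 3 of the arrays near 0, B cell means are above 0 on 3 arrays, Ucp1 is 1.78 on 1 array with a marker mean of 6.11, and cardiac muscle genes have a median difference of -0.24, which was 0.085 with median centring.

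Macrophage and MHC class II genes were higher with the fat markers. All 15 macrophage genes were higher and 6 rose (40%, against 4.37% of all genes tested), with a median of 0.39. In this list 3 were called without nano-TiO2 day 1 replicate 1 and 0 without the 3 arrays with the lowest atrial values. Retnla, a secreted protein of resident macrophages, rose by 1.51 ± 0.26 and Lyve1 (a hyaluronan receptor of resident macrophages and lymph vessels) by 0.88 ± 0.15, with 0.16 at a probe well above background on 9 arrays (limma, adjusted p 0.00317 and 0.00286). Timd4 rose by 0.46 ± 0.11, the growth factor receptor Csf1r by 0.39 ± 0.093 (0.23 at a second probe) and the Fc receptor Fcgr3, without overlap, by 0.34 ± 0.074 (limma, adjusted p 0.0214, 0.0171 and 0.011). Of 6 MHC class II genes, which serve antigen presentation, 3 rose (50%, against the same 4.37%). The count was 2 without nano-TiO2 day 1 replicate 1, 0 without the 3 arrays with the highest B cell values and 0 without the 3 with the lowest atrial values. Cd74 lay at -0.021, 0.89 and 1.28 against -0.32, 0.020 and 0.34, and the differences were 0.74 ± 0.16 for Cd74, 0.69 ± 0.15 for H2-DMb1 and 0.56 ± 0.13 for their regulator Ciita (limma, adjusted p 0.00971, 0.0119 and 0.0163).

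B cell genes were high on 3 fat-rich arrays. Cxcl13, the chemokine that draws B cells into follicles, lay at 3.94 on nano-TiO2 day 28 replicate 6 and at 3.38 and 3.42 on control day 28 replicates 1 and 5. It ran from 0.062 to 2.00 on the other 8 fat-rich arrays and from -0.28 to 0.63 on the fat-poor arrays. Cd79b, a part of the B cell receptor, was -0.61, -0.29 and -0.37 on those 3 arrays and at most -1.89 on all others. Of 9 tested B cell genes 2 rose (22.2%, against 4.37% of all genes tested). They were Cxcl13, by 1.74 ± 0.45 (limma, adjusted p 0.0269), and Fcmr, the IgM receptor, at least 1.64-fold. Fcmr was well above background on 10 fat-rich and on no fat-poor array. It reached the filter through the fat-rich class alone, so its call is a description only. Without the 3 arrays with high B cell genes 0 were called and the median was 0.21 in place of 0.77. Without control day 28 replicate 6, 0 were called. The T cell list had a median of 0.0045 over 9 tested genes, and its 2 called members (22.2%) were Ccl19 and Cd3d. Ccl19, a lymph node chemokine, rose by 1.80 ± 0.33 (limma, adjusted p 0.00469). Cd3d, a part of the T cell receptor complex, was at least 1.31-fold higher. Like Fcmr it was well above background on 10 fat-rich and on no fat-poor array, so its call is a description only. In this list 0 were called without the 3 arrays with the lowest atrial values and 1 without control day 28 replicate 6. The thymus genes Rag1, Rag2, Ptcra, Foxn1, Psmb11, Prss16 and Themis stayed under the filter.

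Smooth muscle and nerve genes rose in part. Of 10 smooth muscle genes 4 rose (1 without nano-TiO2 day 1 replicate 1, 0 without the 3 arrays with the lowest atrial values). These were Cnn1 (1.71 ± 0.40), Tagln (1.36 ± 0.32, and 0.80 at a second probe), Lmod1 (0.93 ± 0.22) and Myh11 (0.89 ± 0.17), contractile and actin-binding proteins of vessel walls (limma, adjusted p 0.0151, 0.0153, 0.0156 and 0.00585). Of 11 nerve and Schwann cell genes 4 rose (36.4%, against the same 4.37%), with the myelin genes Mbp (0.86 ± 0.17) and Pmp22 (0.49 ± 0.11) among them (limma, adjusted p 0.00636 and 0.0106). Mbp differed by 0.25 and 0.030 at probes well above background on 9 arrays and on 1. Leaving out nano-TiO2 day 1 replicate 1 left 1 nerve gene called, and leaving out the 3 arrays with the lowest atrial values left 0. Of 13 endothelial genes 1 was called higher, against 4.37% of all genes tested. It was Vwf of the vessel lining, at 0.65 ± 0.17 and 1.16 at a second probe (limma, adjusted p 0.0299, 0 called without nano-TiO2 day 1 replicate 1), and the list's median was 0.10.

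Liver transcripts were highest on some of the fat-rich arrays and stood on some fat-poor arrays too. On control day 1 replicates 1 to 4, all with a marker mean near 0, Alb ran from 2.12 to 2.65 and Mup1 from 1.46 to 1.99. On the fat-rich arrays Alb ran from 0.0081 to 5.28. All 10 tested liver genes were higher and 3 rose (30%, against 4.37% of all genes tested). Mup1 (a major urinary protein, whose near-identical family members its probe may also read, so that its value is uncertain) rose by 3.25 ± 0.64, Ahsg (fetuin) by 1.73 ± 0.30 and Trf (transferrin) by 1.58 ± 0.29 (limma, adjusted p 0.00619, 0.00294 and 0.00514), and 0 were called without the 3 arrays with the lowest atrial values. The mean of the liver genes was 4.62 and 4.18 on control day 28 replicates 4 and 1, 2.80 on nano-TiO2 day 1 replicate 2 and 2.31 on control day 28 replicate 3, and at most 1.92 on the others. The mean of the lung epithelium genes was 3.12 and 3.23 on control day 28 replicates 1 and 5, and at most 1.58 on the others. Without these 5 arrays Mup1 (2.40 ± 0.41), Ahsg (1.69 ± 0.31) and Trf (1.33 ± 0.25) were still called (limma, adjusted p 0.00628, 0.00818 and 0.00897). In that fit 573 genes of all tested were higher and 80 lower, and Hp, which liver also makes, differed by 3.06 ± 0.43. What part liver RNA has in the other values was not tested.

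The genes that were lower on the fat-rich arrays differed little. Their calls moved with the processing, with 0 genes called lower by limma under median centring and 2 with normexp fitted on all spots. Ung, which removes uracil from DNA, lay at -0.66, -0.30 and 0.015 on the fat-rich and at -0.079, 0.33 and 0.51 on the fat-poor arrays and fell by 0.60 (limma, adjusted p 0.00265). Fam110a fell by 0.60, the methyltransferase Smyd2 by 0.54, the protease inhibitor Cst6 by 0.54, the actin regulator Cyfip2 by 0.52 (with a difference of -0.24 at a second probe) and the mitochondrial nuclease Endog by 0.51. Tesc fell by 0.49, the calcium channel subunit Cacna2d1 by 0.49 (-0.22 at a second probe), Plaat1 by 0.49 (-0.32 and 0.014 at 2 other probes), the mitochondrial carrier Slc25a13 by 0.47, Tnfaip8 by 0.47 and Asb5 by 0.46. In the series matrix Plaat1 did not pass (limma, adjusted p 0.0671). All fat-rich values lay below all fat-poor values for Tnfaip8 (0.61, 0.92 and 1.12 against 1.19, 1.36 and 1.66) and for Sema3b and Osgin2, which were named after their values were seen.

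Heart muscle lists lay lower by small amounts that turned with median centring. Their few calls stand against 1.32% of all genes tested called lower. All 20 respiratory chain genes were lower and 2 fell, Cox5a by 0.43 and Sdhd by 0.26, with a list median of -0.23 (0.12 with median centring, where Sdhd stood at 0.071). Of 20 cardiac muscle genes 18 were lower and 1 fell, the creatine kinase Ckm by 0.41 (5.39, 5.60 and 5.96 against 5.85, 6.06 and 6.38), with a median of -0.24 (0.085 with median centring). Of 18 fatty acid oxidation genes 14 were lower and 1 fell, Eci1 by 0.35, with a median of -0.15 (0.13 with median centring). The ventricular genes had a median of -0.22 (0.040 with median centring) with 0 of 9 called by limma and 3 at an unadjusted p under 0.05. Leaving out 1 array moved the lower calls between 0 and 5 for respiratory chain and cardiac muscle genes and between 0 and 3 for oxidation genes.

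Among the 24 genes without overlap, Gpc3 (a surface proteoglycan) had the smallest adjusted p. It was named after its values were seen, lay at 1.89, 2.54 and 2.96 on the fat-rich and at 0.59, 0.92 and 1.72 on the fat-poor arrays and rose by 1.32 ± 0.14 (limma, adjusted p 2.05e-05). Nap1l5, named in the same way, differed by 0.65 ± 0.082. It was well above background on 10 fat-rich arrays and on 1 fat-poor array. It reached the filter through the fat-rich class, so its call is a description only. Also named after their values were seen, the transcription factor Foxp2 rose by 0.84 ± 0.14 and the interferon-induced Ifi27 by 1.18 ± 0.21 (limma, adjusted p 0.00265 and 0.00331). The phosphatase inhibitor Ppp1r1a rose by 1.06 ± 0.19 and Hdc, the enzyme that makes histamine, by 0.64 ± 0.11 (limma, adjusted p 0.00369 and 0.00391).

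**Figure D4:**
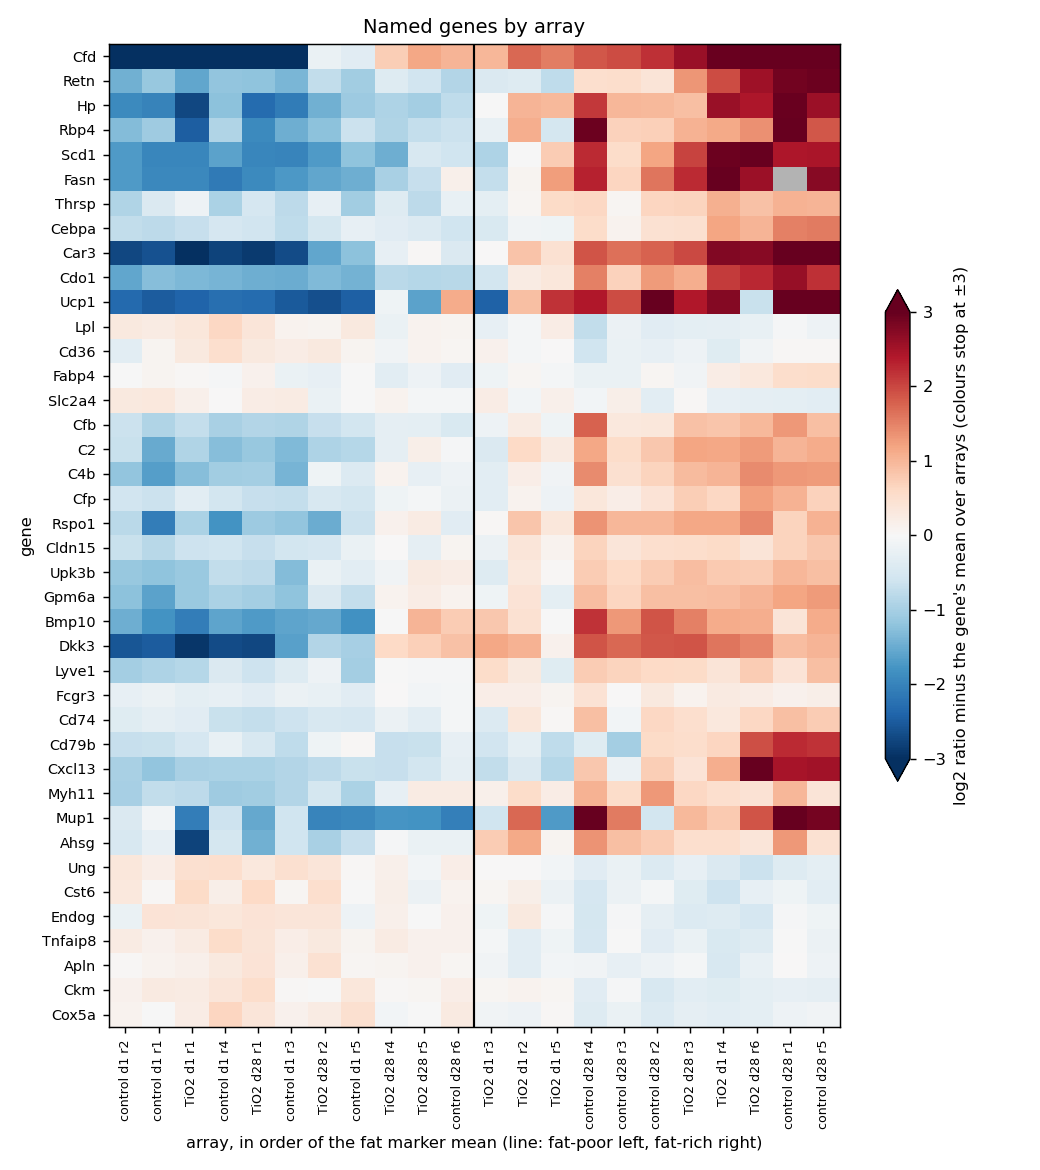
Log2 ratio of named genes on each array, minus the gene's mean over the arrays, with arrays in order of the marker mean and the division as a black line (grey, spot left out). Cfd, Car3 and Dkk3 are lowest on the 6 arrays at the left, Cxcl13 and Cd79b are highest on the last 3 arrays at the right, and Lpl, Cd36, Fabp4 and Slc2a4 vary little.

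Exposure and fat were not independent in this design, with 0 of 5 control and 4 of 5 nano-TiO2 arrays fat-rich at day 1 and 5 of 6 and 2 of 6 at day 28. The contrast of nano-TiO2 with control was therefore fitted without a fat term, with the fat class and with the marker mean as a covariate, in this order below. The median over complement genes was 0.41, 0.0040 and 0.044 at day 1 and -0.48, -0.069 and -0.064 at day 28. For mesothelium genes it was 0.77, 0.073 and 0.057 at day 1 and -0.61, -0.12 and -0.081 at day 28. For atrial genes it was 1.23, 0.074 and 0.13 at day 1 and -0.81, 0.031 and 0.029 at day 28. Glucocorticoid response genes had medians of 0.50, 0.48 and 0.67 at day 1 and -0.11, -0.037 and -0.093 at day 28. Liver and B cell medians lay farther from 0 at day 1 with either fat term than without. For liver genes they were 0.10, -0.82 and -0.58 at day 1 and -1.35, -0.78 and -1.02 at day 28, and for B cell genes 0.13, -0.57 and -0.69 at day 1 and -0.27, 0.12 and 0.24 at day 28. C2 had differences of 1.26 ± 0.41, 0.13 ± 0.32 and 0.20 ± 0.20 at day 1, and Cfb had 0.81 ± 0.37, -0.21 ± 0.29 and -0.063 ± 0.24. Ucp1 at day 28 had -3.49 ± 0.84, -2.22 ± 0.73 and -2.07 ± 0.58.

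In each of these 6 fits 0 of 15511 genes (0%) passed by limma with Benjamini-Hochberg adjustment. At an unadjusted p under 0.05 there were 1337 at day 1 and 1172 at day 28 without a fat term, 295 and 325 with the class, and 644 and 429 with the marker mean. At day 1 all 5 control arrays were fat-poor. The fit with the class therefore adjusts the 4 fat-rich nano-TiO2 arrays by a class difference shared over the groups. Control day 1 gave no part of that difference, which is taken to be the same in each group. An effect of exposure on fat in the heart and a difference in which piece was taken cannot be told apart.

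**Figure D5:**
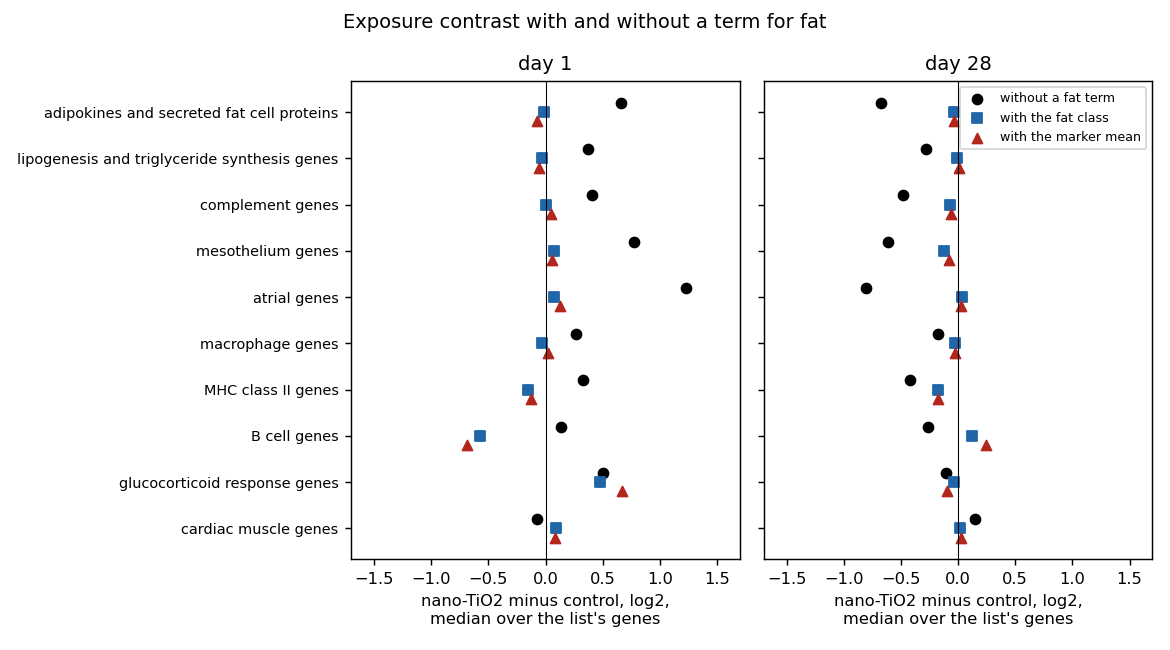
Median over the genes of each list of the difference nano-TiO2 minus control (log2) at day 1 and day 28, without a fat term, with the fat class and with the marker mean as a covariate. The complement median was 0.41 and -0.48 without a fat term and between -0.069 and 0.044 with one. The glucocorticoid response median in the 3 fits was 0.48 to 0.67 at day 1 and between -0.11 and -0.037 at day 28.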

How the data were processed

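Hearts of 22 mice were each measured on 1 Agilent 2-colour array, with heart RNA in Cy5, common reference RNA in Cy3 and no dye swap. The deposited scanner files hold median spot and background intensities, made with Feature Extraction 9.5.3.1 per the submitters' processing notes and 10.7.3.1 per the file headers. The deposited series matrix holds log2 ratios of Cy5 over Cy3, whose unstated scale and direction were found by setting it against the scanner files. Its columns correlated at 0.992 to 0.998 with loess ratios made without background subtraction, with column medians of -0.036 to -0.021. The scanner software's deposited log10 ratios were used as an alternative.

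Intensities were corrected with normexp (offset 50) and loess in limma 3.58.1 (R 4.3.3). Spots flagged in either channel for uneven background, uneven signal or as outliers were left out (0.306%). No spot was saturated in Cy5, and saturation in Cy3 was not looked at. Of 41174 probes, the 19287 whose Cy5 signal stood well above background on 5 or more arrays were kept, and the probe with the highest mean Cy5 signal stood for a gene, which gave 15514 genes, 10486 with a symbol. Symbols were assigned by matching the accession of each probe to RefSeq transcripts, and probes without a match have no symbol. Models had the 4 title groups and the class as terms, with Benjamini-Hochberg adjustment at 0.05. Values for "at least N-fold" use the lowest signals well above background and are open to dye bias. Replicates are separate mice, so p-values measure the spread among these mice. The scripts were tested on simulated data.

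The members, the 33 gene lists and the tests were chosen with earlier results of these data known. Genes were named as the 12 largest rises and falls with a symbol and the same direction in the series matrix, the up to 5 list members with the smallest p, and fat cell genes named for their role. Alternatives covered background, normalization, filter, probe rule, class rule, blocks, covariates and arrays left out, and 4 of them were chosen after seeing the data. The slide number and scan day were the batches tested.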

Additional observations from a re-analysis of the deposited data

Results flagged for a closer look

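In 4 to 6 arrays of a group, 132 gaps of an end value to its neighbour were examined, and 9 passed Dixon's limit, where chance gives about 1 in 20. The fat marker mean of control day 1 replicate 5 was 1.49, with the next array of the group at 0.12. Its T cell mean was -0.18, with the next at -0.34. In nano-TiO2 day 1, replicate 1 had an atrial mean of 0.65 (next 3.34) and a smooth muscle mean of 1.43 (next 2.11). In the same group the B cell mean of replicate 4 was -0.68 (next -1.37), the lipid droplet and lipolysis mean of replicate 3 was 2.09 (next 2.37) and the neutrophil mean of replicate 2 was 1.69 (next 1.45), the last from 2 genes. In nano-TiO2 day 28, replicate 1 had an atrial mean of 0.75 (next 3.09) and replicate 2 a thymus gene mean of -0.50 (next -0.72).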

How the results depend on the processing

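Beside 678 higher and 205 lower genes, the counts by setting (higher, lower) were as follows. They were 46 and 2 with normexp fitted on all spots, 1129 and 957 in the scanner log ratios, 257 and 0 with median centring, 1186 and 759 with the marker mean as a continuous covariate, 151 and 49 with classes from the scanner-file ratios, 1881 and 1044 without title group, 359 and 57 with slide as a block and 1137 and 477 with array weights. They were 6 and 0 with the atrial mean as a covariate, 290 and 32 with liver and lung means as covariates, 1 and 0 on control arrays, 292 and 23 on nano-TiO2 arrays, and 0 and 0 (limma, 1336 and 948 at an unadjusted p under 0.05) with arrays divided at the median of their own title group. Lower genes numbered 366 in the series matrix, 128 with no filter on dim probes and 316 without the 2 arrays next to the division on each side. In the settings chosen after seeing the data they were 43 and 0 without the 3 arrays with the lowest atrial mean, 573 and 80 without the 5 with liver or lung transcripts, 432 and 42 without the 3 with the highest B cell mean and 2 and 0 without the 6 near 0. Leaving out 1 array gave 251 to 815 higher and 24 to 322 lower genes. The causes of these moves were not tested. The higher counts with no background subtraction, scaling between arrays, the stricter filter, the probe mean, scan day and a trended prior were within 1.5 times of 678.

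For named genes, 4328 values over the alternatives kept direction and side of the threshold, 1107 no longer passed, 90 newly passed and 7 turned sign. Those 7 were Slc2a4 at 0.12 with normexp fitted on all spots, Cidea at -0.22 and Thrsp at -0.012 in the scanner log ratios, and Cd36 at 0.033, Slc2a4 at 0.21, Cox8b at 0.10 and Sdhd at 0.071 with median centring. No paired analysis was possible because the labels give each mouse its own number and no number is shared between groups. Genes under the filter, Lep among them, have no measured level, and dim genes are limited by the signal over background.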

Other observations

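Cartilage and valve genes were also higher on some fat-rich arrays. Of 6 tested 2 rose (limma, against 4.37% of all genes tested), among them Comp, a cartilage matrix protein, which lay at 2.21, 3.28 and 3.79 on the fat-rich and at 0.54, 1.38 and 2.93 on the fat-poor arrays and differed by 1.28 ± 0.37 (limma, adjusted p 0.0435). Leaving out nano-TiO2 day 1 replicate 1 left 0 called, and leaving out the 3 arrays with the lowest atrial values left 0. Of 13 glucocorticoid response genes and 15 immediate early genes 0 were called by limma and 0 had an unadjusted p under 0.05, with medians of 0.057 and 0.10. Of 9 skeletal muscle genes 6 were lower and 1 was called lower (against 1.32% of all genes tested). Of 3 erythroid, 2 lymphatic endothelial, 2 neutrophil and 4 lung epithelium genes 0 were called by limma (1, 1, 0 and 0 at an unadjusted p under 0.05). Of 3 thymus genes 1 was called higher, Cd1d1, which other cells also express.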
